A study of Mus musculus with 22 samples.

Results

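The subject is the passage of time in vehicle-treated mice: the hypothalamus after 4 days of DMSO alone, set against the hypothalamus after 1 day of DMSO alone. Its members are the 8 arrays whose titles name lean mice and DMSO at those times, 4 at 4 days and 4 at 1 day, out of 22 arrays in the series. The study gave lean mice celastrol, a plant triterpenoid dissolved in DMSO, or DMSO as its vehicle, and profiled the hypothalamus at 6 hours, 1 day and 4 days. The mice of both DMSO groups were C57BL/6J males labelled as 8 weeks old, kept on normal chow for 2 weeks and injected intraperitoneally with 25 µl of DMSO per day. The 4-day group had therefore been in the experiment for longer, and the labels give neither the number of injections nor the clock time of tissue collection. The 14 other arrays were 4 of DMSO at 6 hours, 4 of celastrol at 6 hours and 3 of celastrol at each of 1 day and 4 days. Array batch is not stated in the labels, and time and any array batch that followed it cannot be told apart here.

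The hypothalamus is a mosaic of small nuclei whose neurons release peptides that set appetite, body temperature, water balance and the output of the pituitary. Its neurons respond to handling and injection through corticotropin-releasing hormone and through immediate early genes, which are transcribed within minutes of activity. A vehicle group that is sampled at several times shows how far transcript levels differ between those samplings in animals that received no drug.

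The dissected tissue carried the transcripts that define the hypothalamus. Hcrt (orexin), Pmch (melanin-concentrating hormone), Oxt (oxytocin), Avp (vasopressin), Cartpt and the transcription factors Sim1, Otp and Nkx2-1 were above the array median in 8 of 8 arrays, while Rax, a tanycyte factor, was above it in 0. Neurod6 and Tbr1 of the cortex, Alas2 and Slc4a1 of red cells, and Ttr, Kl, Folr1, Clic6 and Aqp1 of the choroid plexus were above it in 0 of 8. These markers are a selection. Of the wider neighbouring forebrain list, 14 of 18 genes on the array were bright enough for the test, Drd1 and Ppp1r1b among them. Of the choroid plexus and ependyma list, 5 of 19 were. The dim markers therefore do not show that the tissue was free of its neighbours. The pituitary hormone genes varied between animals, with Cga above the median in 5 of 8 arrays, Gh in 2 and Lhb in 1, and Prl, Tshb and Fshb in 0. One array stood apart: DMSO 1 day replicate 1 had a mean correlation of 0.9951 with the other arrays of its group, against 0.9965 to 0.9968 for the other DMSO 1 day arrays and 0.9972 to 0.9974 for the DMSO 4 days arrays. It lay farthest from the 4-day mean, in the direction of the change, for 5029 of 9880 genes tested. Values without it are given beside the genes that passed and beside the named genes and lists that it moved most.

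Between 4 days and 1 day of DMSO, few genes passed the test after adjustment, and those changed by small amounts. Of 9880 genes tested with limma, 15 passed a Benjamini-Hochberg adjusted p of 0.05, which is 0.152% of the genes tested. Of these, 5 were higher at 4 days (0.0506%) and 10 were lower (0.101%). The size of their change lay between 0.19 and 0.32 on the log2 scale, that is between 1.14-fold and 1.25-fold in either direction, and the arrays of the groups did not overlap for any of the 15. Over all genes the median log2 change was -0.0016, with 4865 genes above 0 (49.2%) and 5015 below (50.8%), and its 5th and 95th percentiles were -0.14 and 0.13. An unadjusted p under 0.05 was reached by 1448 genes (14.7%), 756 higher (7.65%) and 692 lower (7.0%), and 968 genes (9.8%) had groups that did not overlap. With no difference between the times, a share of about 0.05 would be expected at that p, and of about 0.0286 without overlap. Both shares found were larger, so few calls need not mean that few genes differed. The excess leaned on 1 array. Without DMSO 1 day replicate 1, 877 of 9880 genes had an unadjusted limma p under 0.05. With any other of the 8 arrays left out, 1167 to 1611 had. Genes are not independent, and the excess was not tested.

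The 15 calls depended on which arrays set the spread. With the 8 DMSO arrays alone in the model, limma called 0 genes, with 1525 at an unadjusted p under 0.05. With the 12 DMSO arrays of all 3 times it also called 0, with 1321 at an unadjusted p under 0.05. Without DMSO 1 day replicate 1 there were 5 calls, 3 of them among the 15 (Mgat2, Penk and Arf1). Leaving out DMSO 1 day replicate 2, 3 or 4 left 11, 1 or 13 calls. Leaving out DMSO 4 days replicate 1, 2, 3 or 4 left 5, 4, 2 or 1.

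The 5 genes that rose were Leng8, Pex5l, Trerf1, Ebf4 and Ptpre. Leng8 had log2 intensities of 11.37, 11.43, 11.65 and 11.53 after 4 days of DMSO, against 11.16, 11.20, 11.23 and 11.24 after 1 day. Its mean was 11.50 ± 0.121 at 4 days and 11.21 ± 0.0341 at 1 day (SD, n = 4 each), a log2 change of 0.29 (SE 0.050, adjusted p = 0.0230). The 4-day arrays were all higher, and they were also more spread than the 1-day arrays. Pex5l, an auxiliary subunit that sets the trafficking of the pacemaker HCN channels in neurons, measured 10.54, 10.50, 10.60 and 10.64 at 4 days, against 10.23, 10.39, 10.26 and 10.37 at 1 day. Its log2 change was 0.26 (SE 0.050, adjusted p = 0.0339), and the lowest 4-day array stood above the highest 1-day array by less than the range within either group.

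Trerf1, a zinc finger regulator of transcription, measured 9.91, 9.998, 10.10 and 10.02 at 4 days, against 9.62, 9.76, 9.77 and 9.87 at 1 day, with a log2 change of 0.25 (SE 0.048, adjusted p = 0.0331). Ebf4, of the early B-cell factor family of transcription factors, measured 9.94, 9.99, 9.98 and 9.99 at 4 days, against 9.67, 9.74, 9.81 and 9.83 at 1 day, with a log2 change of 0.21 (SE 0.043, adjusted p = 0.0467). In both genes DMSO 1 day replicate 1 was the lowest of the 8 arrays. Ptpre, a protein tyrosine phosphatase, measured 9.29, 9.36, 9.30 and 9.31 at 4 days, against 9.07, 9.13, 9.15 and 9.17 at 1 day, with a log2 change of 0.19 (SE 0.037, adjusted p = 0.0414). Without DMSO 1 day replicate 1 the log2 changes of Leng8, Pex5l, Trerf1, Ebf4 and Ptpre were 0.27, 0.23, 0.21, 0.18 and 0.17, and their adjusted p rose to 0.0728, 0.141, 0.127, 0.166 and 0.141.

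Among the genes that fell, 1 encodes a neuropeptide. Penk, the precursor of the enkephalin opioid peptides, measured 12.27, 12.27, 12.20 and 12.17 after 4 days of DMSO, against 12.46, 12.44, 12.46 and 12.45 after 1 day. The 1-day arrays were nearly identical, with a SD of 0.00988, and all 4-day arrays lay below them. The log2 change was -0.23 (SE 0.037, adjusted p = 0.0213), and without DMSO 1 day replicate 1 it was -0.22 (adjusted p = 0.0367). Penk is also transcribed in the striatum and other forebrain next to the hypothalamus.

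A pair of the genes that fell act in the Golgi. Mgat2, the Golgi enzyme that starts the second branch of complex N-glycans, measured 8.85, 8.95, 8.94 and 8.87 at 4 days, against 9.21, 9.10, 9.18 and 9.29 at 1 day. The groups were separated by more than the range within the 4-day group. Its log2 change of -0.30 (SE 0.042) had the smallest adjusted p of all genes, 0.00467, and Mgat2 passed with each of the 8 arrays left out in turn. Arf1, the small GTPase that recruits coat proteins to the Golgi, measured 13.36, 13.36, 13.41 and 13.39 at 4 days, against 13.50, 13.70, 13.66 and 13.65 at 1 day. Here DMSO 1 day replicate 1 was the 1-day array nearest to the 4-day values, and the log2 change of -0.25 (SE 0.045, adjusted p = 0.0319) was -0.29 without it (adjusted p = 0.0127).

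Further genes that fell serve protein folding, the cytoskeleton, membranes, mitochondria and ribosomes. Tubb2b, a beta-tubulin of neurons and glia, had the largest fall of the 10: 11.51, 11.37, 11.41 and 11.42 at 4 days, against 11.89, 11.75, 11.72 and 11.64 at 1 day. Its log2 change was -0.32 (SE 0.065, adjusted p = 0.0447), and -0.27 without DMSO 1 day replicate 1 (adjusted p = 0.166). Tubb5, a related beta-tubulin, did not pass, at 12.80 ± 0.0236 at 4 days and 12.77 ± 0.0444 at 1 day (SD, n = 4 each). Dnajc12, a co-chaperone of the enzymes that hydroxylate aromatic amino acids, measured 9.45, 9.38, 9.49 and 9.46 at 4 days, against 9.86, 9.65, 9.74 and 9.66 at 1 day, a log2 change of -0.28 (SE 0.051, adjusted p = 0.0275). DMSO 1 day replicate 1 was the highest array for both Tubb2b and Dnajc12.

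Anxa5, a calcium-dependent binder of phosphatidylserine, measured 11.85, 11.72, 11.82 and 11.88 at 4 days, against 12.15, 12.03, 12.09 and 12.05 at 1 day, a log2 change of -0.27 (SE 0.051, adjusted p = 0.0339). Fis1, an adaptor of mitochondrial fission, measured 11.74, 11.73, 11.84 and 11.81 at 4 days, against 12.12, 11.98, 12.01 and 11.89 at 1 day, a log2 change of -0.22 (SE 0.045, adjusted p = 0.0467). Both were lower in every 4-day array than in any 1-day array. Rpl23, a protein of the large ribosomal subunit, measured 11.70, 11.65, 11.67 and 11.66 at 4 days, against 12.004, 11.83, 11.90 and 11.93 at 1 day, a log2 change of -0.25 (SE 0.047, adjusted p = 0.0331). Ribosomal protein genes have many processed copies in the genome, so a probe set can also read those. R3hcc1 and Cdkn2aipnl completed the 10 genes that fell. R3hcc1 measured 8.39, 8.38, 8.46 and 8.37 at 4 days, against 8.81, 8.67, 8.68 and 8.56 at 1 day, a log2 change of -0.28 (SE 0.048, adjusted p = 0.0230). Cdkn2aipnl measured 10.63, 10.61, 10.57 and 10.55 at 4 days, against 10.88, 10.78, 10.78 and 10.77 at 1 day, a log2 change of -0.21 (SE 0.043, adjusted p = 0.0467). Without DMSO 1 day replicate 1 the adjusted p of the 7 falls other than Mgat2, Arf1 and Penk lay between 0.0716 and 0.166.

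Below the threshold on the higher side, the smallest p belonged to Rpl29, Eml1, Bsn, Ptpn5 and Fnbp1, with log2 changes of 0.18 to 0.27 and adjusted p of 0.0502 to 0.0580. Bsn and Ptpn5 are neuronal: Bsn encodes bassoon, a scaffold of the presynaptic active zone, and Ptpn5 the striatum-enriched phosphatase STEP. Bsn measured 9.80, 9.77, 9.87 and 9.79 at 4 days, against 9.32, 9.60, 9.64 and 9.62 at 1 day, so its 1-day mean was set in part by replicate 1. Without that array the log2 change of Bsn was 0.19 in place of 0.27. Eml1, a microtubule-binding protein, went the other way: its adjusted p was 0.0542 with all arrays and 0.0367 without DMSO 1 day replicate 1.

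**Figure D1:**
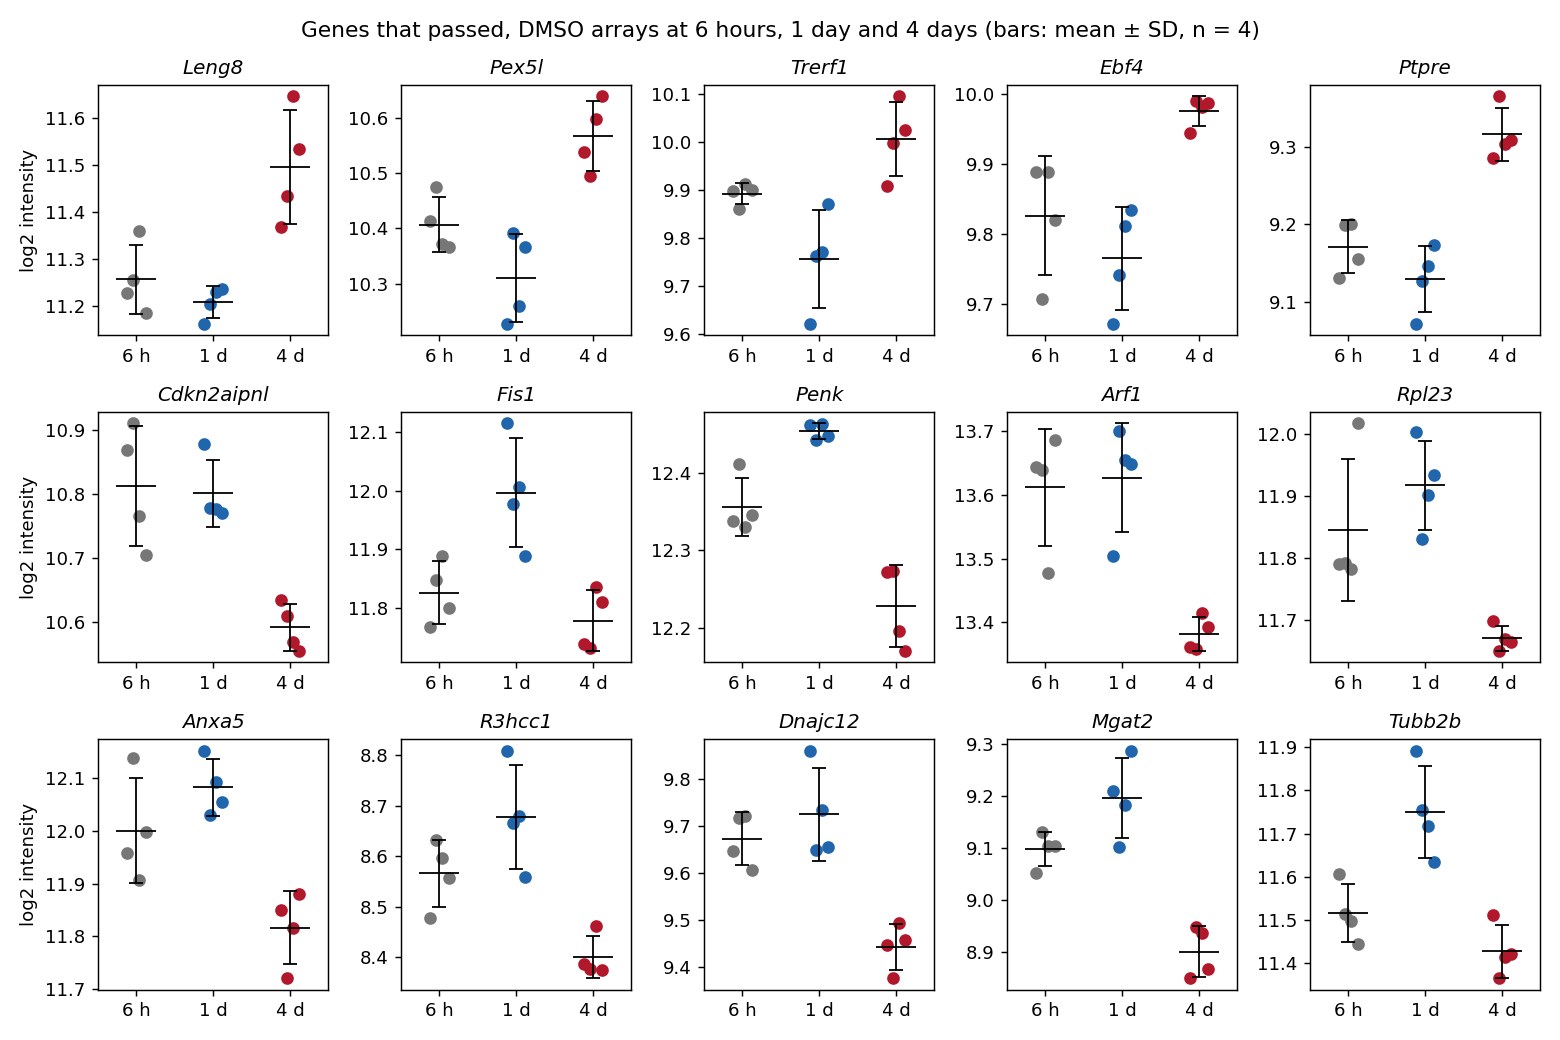
Log2 intensity of the 15 genes that passed in each DMSO array at 6 hours, 1 day and 4 days (points), with group mean and SD (bars, n = 4), on a separate axis for each gene. At 4 days all arrays lie on 1 side of the 1-day arrays, and for 14 of the 15 genes the 6-hour mean lies between the other means.

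The DMSO arrays of 6 hours add another time, from animals that enter neither group. For 14 of the 15 genes the 6-hour mean lay between the 4-day and the 1-day means, and for 3 of the 15 it was nearer to 4 days. Penk averaged 12.36 ± 0.0375 at 6 hours, 12.45 ± 0.00988 at 1 day and 12.23 ± 0.0529 at 4 days (SD, n = 4 each). Tubb2b averaged 11.52 ± 0.0667 at 6 hours, 11.75 ± 0.107 at 1 day and 11.43 ± 0.0607 at 4 days. In such genes the 1-day and 4-day means lay at opposite ends of the 3 times, and no steady course over time was seen. Cdkn2aipnl was the exception, at 10.81 ± 0.0941 at 6 hours, 10.80 ± 0.0517 at 1 day and 10.59 ± 0.0371 at 4 days. The 15 genes were chosen for the distance between 4 days and 1 day, so an intermediate 6-hour mean is described here without a test.

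The same interval in celastrol-treated mice shares no array with the DMSO comparison. It joins time with any change in the effect of the drug, and these cannot be told apart. An array batch that followed time could also be common to both intervals. Celastrol at 4 days against celastrol at 1 day, 3 arrays each, gave 0 calls with limma, with 1081 genes at an unadjusted p under 0.05 (10.9%), 814 higher (8.24%) and 267 lower (2.70%), and a lowest adjusted p of 0.0956. The median log2 change of all genes in that comparison was 0.03, with 63.3% of genes above 0. Of the 15 genes that passed in DMSO, 14 had the same sign in celastrol, all but Rpl23, and 6 of these had an unadjusted p under 0.05. The share of all 9880 genes with the same sign in both was not counted. The agreement of the 15 therefore cannot be set against that of genes in general. Across all 9880 genes the 2 sets of log2 changes correlated with Pearson's r of 0.32 and Spearman's rho of 0.32, as a description across genes, which are not independent replicates.

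Penk and Arf1 came closest to their DMSO values. The celastrol change of Penk was -0.18 (SE 0.04) beside -0.23 in DMSO, and that of Arf1 was -0.20 (SE 0.05) beside -0.25. Leng8 moved by 0.17 (SE 0.06) in celastrol beside 0.29 in DMSO. For Mgat2, the gene with the smallest adjusted p in DMSO, the celastrol change was -0.05 (SE 0.05), and the difference between the intervals was -0.24 with a 95% interval of -0.38 to -0.11 (adjusted p = 0.715). Rpl23 was at 0.02 (SE 0.05) in celastrol, a difference of -0.27 with a 95% interval of -0.42 to -0.12 (adjusted p = 0.715).

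**Figure D2:**
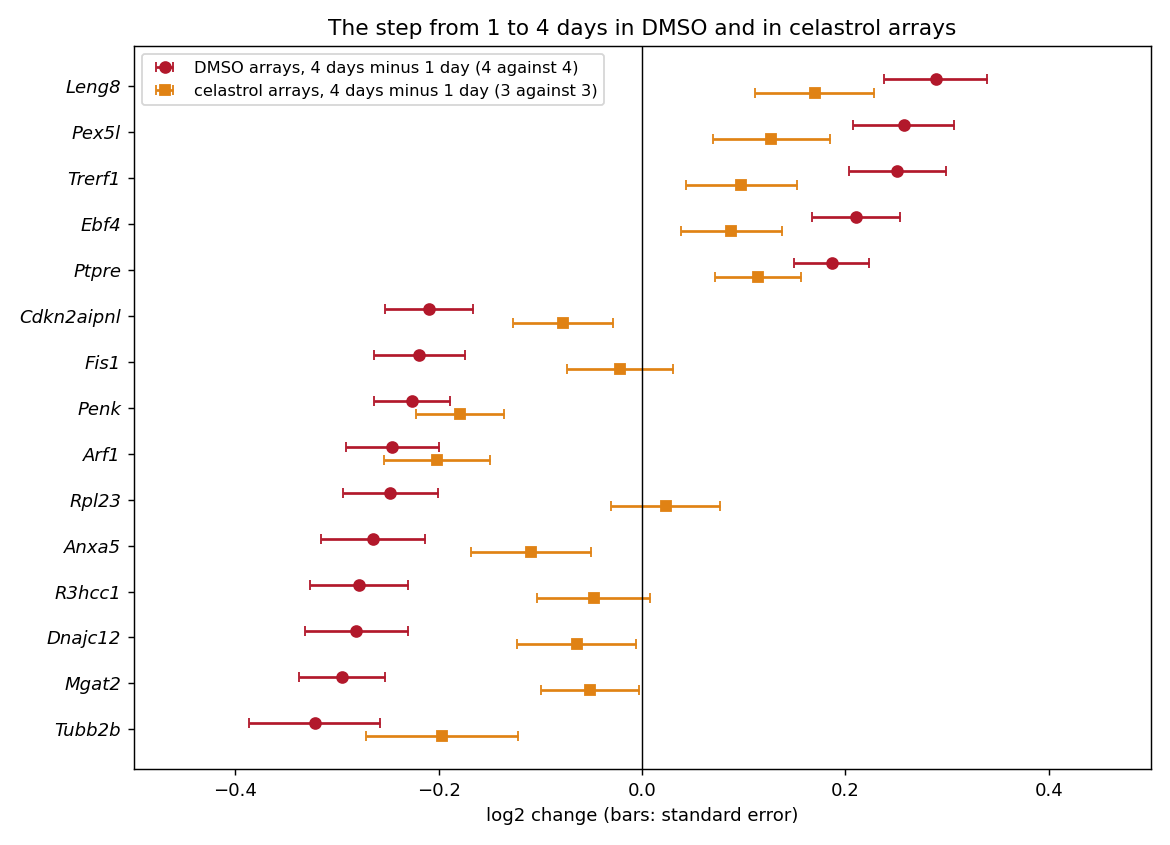
Log2 change from 1 to 4 days of the 15 genes that passed in DMSO, with SE, for DMSO arrays (4 against 4, circles) and celastrol arrays (3 against 3, squares). Penk and Arf1 have close values in both, while Rpl23 lies at -0.25 in DMSO and 0.02 in celastrol.

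The difference between the DMSO interval and the celastrol interval was tested for all genes, and limma called 0 of 9880, with 593 at an unadjusted p under 0.05 (6.00%), 98 with a higher (0.992%) and 495 with a lower change (5.01%) in DMSO. The smallest p belonged to Tek, the angiopoietin receptor of endothelium. Tek measured 8.50, 8.50, 8.53 and 8.57 at 4 days of DMSO, against 8.58, 8.73, 8.67 and 8.58 at 1 day of DMSO, a log2 change of -0.12 (SE 0.049), beside 0.30 (SE 0.06) in celastrol. The difference was -0.41 with a 95% interval of -0.57 to -0.26 (adjusted p = 0.138). Next came Rpf2 and Utp15, factors of ribosome assembly, Zranb3, a DNA translocase of replication repair, and Ly86, a partner of the RP105 receptor of B cells and myeloid cells, each with an adjusted p of 0.465. Utp15 was lower by 0.24 in DMSO 4 days (adjusted p = 0.0542), while Ly86 lay at 10.41 ± 0.0294 at 4 days and 10.43 ± 0.104 at 1 day of DMSO (SD, n = 4 each) and changed by 0.49 (SE 0.09) in celastrol.

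Gene lists for 28 pathways, cell types and neighbouring tissues were read as counts of signs and medians, against an all-gene median of -0.0016 with 50.8% of genes below 0. At an unadjusted limma p under 0.05, 7.0% of all genes were lower and 7.65% higher. The counts of list members at that p, here and below, stand beside those shares. No list was tested as a set. The list with the most tested members was oxidative phosphorylation, the mitochondrial chain that makes ATP. Of its 41 genes, 34 had a log2 change below 0 and 7 above, with a median of -0.08, and 0 passed the test by limma, with 16 lower and 1 higher at an unadjusted p under 0.05. In 10 members every 4-day array lay below every 1-day array, and in 1 every 4-day array lay above, where 5.07% and 4.73% of all genes did so. Ndufs3, a core subunit of complex I, measured 11.27, 11.21, 11.28 and 11.29 at 4 days, against 11.52, 11.35, 11.44 and 11.38 at 1 day, a log2 change of -0.16 (SE 0.042, adjusted p = 0.105). Sdha, the flavoprotein of succinate dehydrogenase, measured 12.32, 12.32, 12.40 and 12.40 at 4 days, against 12.60, 12.51, 12.49 and 12.43 at 1 day, a log2 change of -0.14 (SE 0.041, adjusted p = 0.130). The 4-day arrays were lower for both genes, and DMSO 1 day replicate 1 was the highest of all.

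Proteasome subunits and cytosolic ribosomal proteins had a like tilt. Of 30 proteasome genes, 26 were below 0 and 4 above, with a median of -0.07, and 0 passed by limma. At an unadjusted p under 0.05, 12 were lower and 0 higher, where 7.0% and 7.65% of all genes were. Psmb4, a subunit of the proteasome core, measured 11.65, 11.55, 11.80 and 11.72 at 4 days, against 12.24, 11.87, 11.90 and 11.82 at 1 day, a log2 change of -0.28 (SE 0.083, adjusted p = 0.148) that was -0.18 without DMSO 1 day replicate 1. Psmd1, of the regulatory cap, was lower too, at -0.18 (SE 0.048, adjusted p = 0.113) without passing. Of 37 ribosomal protein genes, 26 were below 0 and 11 above, with a median of -0.06, and 1 passed, Rpl23. Rpl29, another protein of the large subunit, is not on the list and lay on the other side, at 0.21 (SE 0.043, adjusted p = 0.0502).

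DMSO 1 day replicate 1 carried much of these 3 lists. Relative to the 1-day mean, the oxidative phosphorylation genes averaged -0.087, -0.079, -0.056 and -0.053 in the 4-day arrays, against 0.070, -0.044, -0.016 and -0.010 in the 1-day arrays. The proteasome genes averaged -0.089, -0.110, -0.062 and -0.088 at 4 days, against 0.108, -0.066, -0.033 and -0.008 at 1 day. The ribosomal protein genes averaged -0.066, -0.078, -0.043 and -0.038 at 4 days, against 0.048, -0.055, -0.006 and 0.014 at 1 day. The DMSO arrays of 6 hours, relative to the same 1-day mean, averaged -0.117, -0.059, -0.059 and -0.040 for oxidative phosphorylation. For the proteasome they averaged -0.174, -0.131, -0.074 and -0.108, and for ribosomal proteins -0.131, -0.067, -0.034 and -0.020. The 1-day group thus had the highest mean of the 3 DMSO times in each list. In each list the first 1-day replicate was the highest of the 8 arrays, and the other 1-day arrays overlapped the 4-day arrays for proteasome and ribosomal proteins but not for oxidative phosphorylation. Without it the medians were -0.05, -0.04 and -0.03, with 32 of 41, 23 of 30 and 26 of 37 genes below 0. In celastrol the medians over the same interval were 0.01, 0.03 and 0.05, with 26 of 41, 21 of 30 and 29 of 37 genes above 0, where 63.3% of all genes were above 0 with a median of 0.03.

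**Figure D3:**
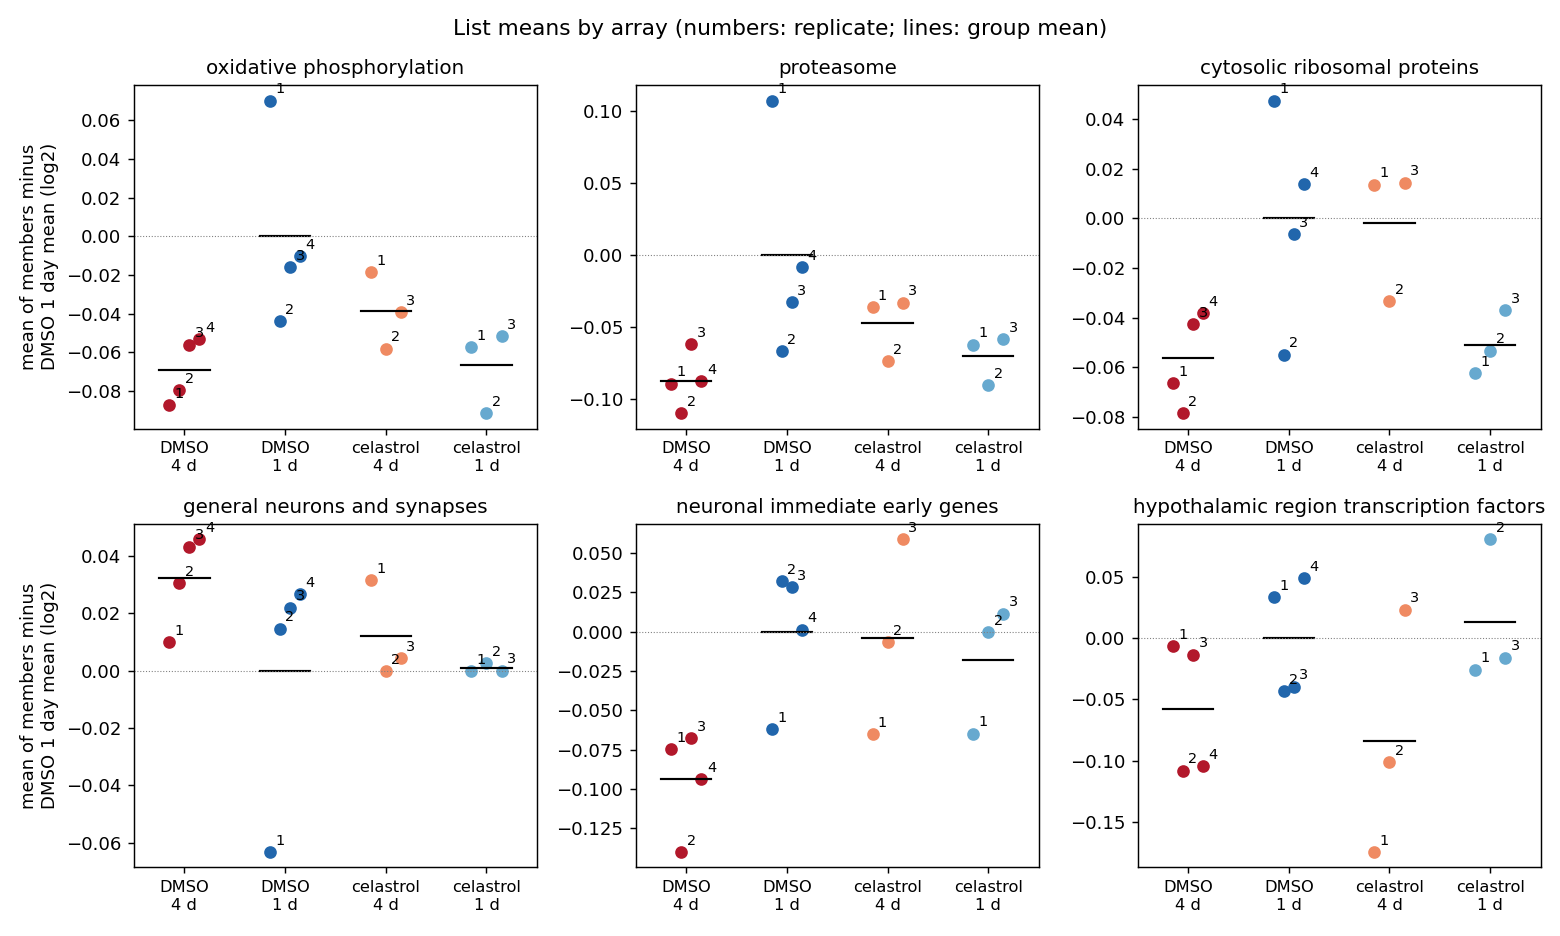
Mean log2 value of 6 gene lists in each array (points, numbered by replicate) as the difference to the DMSO 1 day mean, with group means (lines), for DMSO 4 days, DMSO 1 day, celastrol 4 days and celastrol 1 day. DMSO 1 day replicate 1 is the highest DMSO array for oxidative phosphorylation (0.070), proteasome (0.108) and ribosomal proteins (0.048), and the lowest for general neurons (-0.063).

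The list of general neuron and synapse genes, which also holds markers of neuron classes such as Gad1 and Slc17a6, showed the opposite sign and the same array. Of 20 genes, 15 were above 0 and 5 below, with a median of 0.02, and 0 passed by limma, with 5 higher and 0 lower at an unadjusted p under 0.05. Syn1, a protein of synaptic vesicles, measured 12.36, 12.33, 12.32 and 12.38 at 4 days, against 11.92, 12.31, 12.30 and 12.24 at 1 day, a log2 change of 0.15 (SE 0.060, adjusted p = 0.234) that was 0.06 without DMSO 1 day replicate 1. Camk2a, a kinase of the postsynaptic density, measured 13.03, 13.04, 13.05 and 12.97 at 4 days, against 12.85, 12.93, 12.94 and 12.93 at 1 day, a log2 change of 0.11 (SE 0.036, adjusted p = 0.179). Its groups did not overlap. Without the first 1-day replicate, 10 of the 20 neuronal genes were above 0 and 10 below, with a median of 0.00.

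**Figure D4:**
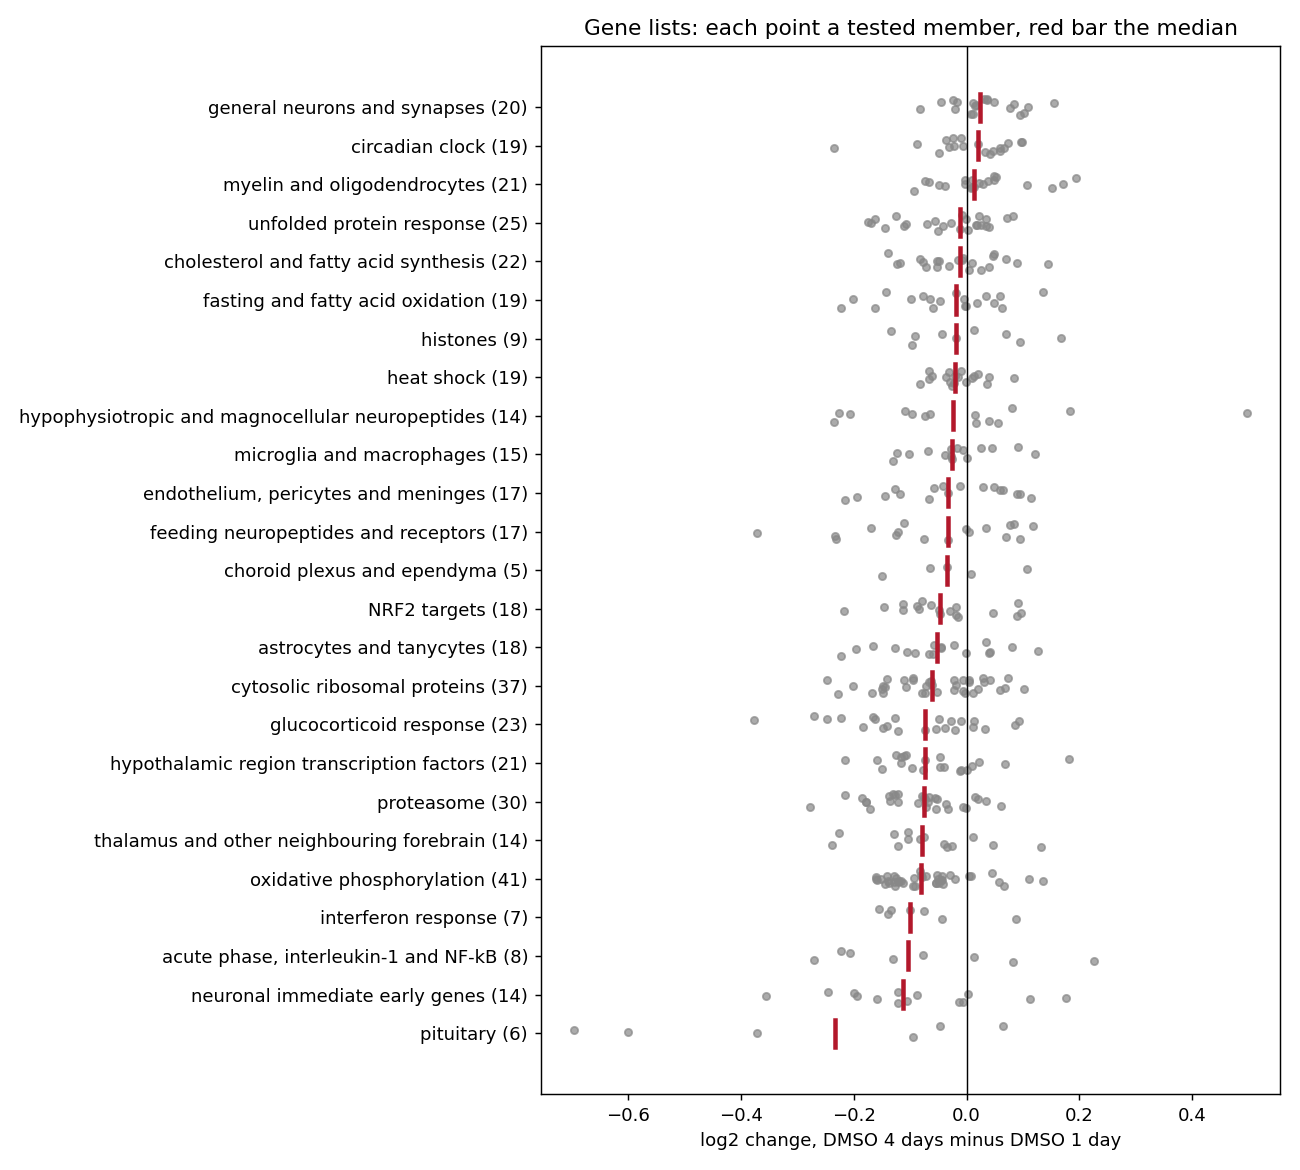
Log2 change, DMSO 4 days minus DMSO 1 day, of each tested gene (points) and the median (bar) in the lists with at least 5 tested genes, with the number tested in brackets. Medians lie between -0.23 for pituitary genes (-0.31 to -0.09 with 1 array left out) and 0.02 for general neurons, and most points lie within 0.2 of 0.

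Immediate early genes, the transcriptional mark of recent neuronal activity, were mostly lower at 4 days of DMSO than at 1 day. Of 14 tested genes, 11 were below 0 and 3 above, with a median of -0.11, and 0 passed by limma. At an unadjusted p under 0.05, 5 were lower and 1 higher, where 7.0% and 7.65% of all genes were. Egr1, a zinc finger factor induced by synaptic activity, measured 8.90, 8.74, 8.74 and 8.89 at 4 days, against 9.05, 9.26, 9.22 and 9.15 at 1 day, a log2 change of -0.35 (SE 0.083, adjusted p = 0.0706). The groups did not overlap, and the change in celastrol was 0.03 (SE 0.10). Nr4a1, an orphan nuclear receptor, measured 8.74, 8.64, 8.84 and 8.78 at 4 days, against 8.72, 9.10, 9.08 and 9.10 at 1 day, a log2 change of -0.25 (SE 0.074, adjusted p = 0.151). Here DMSO 1 day replicate 1 lay with the 4-day arrays, and without it the change was -0.34 (adjusted p = 0.0367).

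Most other tested members were lower too, and 3 of the 14 were above 0. Sik1 changed by -0.16 in limma (SE 0.051, adjusted p = 0.167), with groups that did not overlap. Nptx2 changed by -0.19 (SE 0.059, adjusted p = 0.153) and Btg2 by -0.20 (SE 0.074, adjusted p = 0.215), with overlap in both. Fos was too dim for the test, at 7.25, 7.001, 7.25 and 7.31 at 4 days, against 7.35, 7.52, 7.77 and 7.78 at 1 day. Every 4-day value of Fos was the lower. Nr4a2 was at 10.26 ± 0.180 at 4 days and 10.08 ± 0.0676 at 1 day (SD, n = 4 each), a log2 change of 0.18 (SE 0.095, adjusted p = 0.389). The list median stayed between -0.12 and -0.09 with any 1 of the 8 arrays left out, and the median in celastrol was 0.04, with 9 of 14 genes above 0, where 63.3% of all genes were above 0. Relative to the 1-day mean, the list averaged -0.074, -0.140, -0.067 and -0.094 in the 4-day arrays. It averaged -0.062, 0.032, 0.028 and 0.0013 in the 1-day arrays, with replicate 1 close to the 4-day arrays. In the DMSO arrays of 6 hours the list averaged -0.055, -0.170, -0.028 and -0.019. The 1-day group thus had the highest mean of the 3 times, but its arrays overlapped those of 6 hours.

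Glucocorticoid-response genes, which follow the adrenal stress hormone, had 18 of 23 tested members below 0 and 5 above, with a median of -0.07, and 0 passed by limma, with 6 lower and 0 higher at an unadjusted p under 0.05. Ddit4, an inhibitor of mTORC1 signalling, measured 8.95, 9.11, 9.35 and 9.16 at 4 days, against 9.45, 9.24, 9.40 and 9.48 at 1 day, a log2 change of -0.25 (SE 0.081, adjusted p = 0.179). Sgk1, a kinase induced by glucocorticoids, measured 9.23, 9.37, 9.90 and 8.97 at 4 days, against 9.69, 9.16, 9.98 and 10.15 at 1 day, and its range within each group exceeded the log2 change of -0.38 (SE 0.193, adjusted p = 0.371). The groups overlapped for both genes. Fkbp5, the co-chaperone of the glucocorticoid receptor, was at 8.68 ± 0.177 at 4 days and 8.72 ± 0.147 at 1 day (SD, n = 4 each). In celastrol 17 of the 23 genes were below 0, with a median of -0.05, where 63.3% of all genes were above 0. That interval began at another level. Relative to the DMSO 1 day mean, the list averaged 0.366, 0.125 and 0.146 at 1 day of celastrol. At 4 days of celastrol it averaged 0.157, 0.127 and 0.071.

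Among 17 feeding neuropeptides and receptors, 10 were below 0 and 7 above, with a median of -0.03, and 0 passed by limma. At an unadjusted p under 0.05, 3 were lower and 2 higher, where 7.0% and 7.65% of all genes were. The median was -0.07 without DMSO 1 day replicate 1, with 8 above 0 and 9 below, and -0.0074 without DMSO 1 day replicate 4. Pomc, the precursor of the satiety peptide alpha-MSH and, in the pituitary, of ACTH, measured 8.67, 8.33, 8.56 and 8.46 at 4 days, against 8.83, 8.70, 9.13 and 8.84 at 1 day, a log2 change of -0.37 (SE 0.128, 95% interval -0.64 to -0.11, adjusted p = 0.189). Every 4-day array was the lower. Pomc is on the pituitary list as well, and its highest array, DMSO 1 day replicate 3, was also the highest for Gh; without that array the change of Pomc was -0.29. Hcrt measured 13.04, 12.83, 12.70 and 12.83 at 4 days, against 13.32, 12.94, 12.995 and 13.08 at 1 day, a log2 change of -0.23 (SE 0.091, adjusted p = 0.241) that was -0.15 without DMSO 1 day replicate 1. Npy, which drives feeding, had a log2 change of -0.23 (SE 0.140, adjusted p = 0.447), and of -0.08 without DMSO 1 day replicate 1, which at 11.47 was the highest of its 8 arrays. Lepr, the leptin receptor, was too dim for the test, at 7.85 ± 0.176 at 4 days and 7.98 ± 0.146 at 1 day (SD, n = 4 each). The 23 members on the array, dim ones included, had a median of -0.10.

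The hypophysiotropic and magnocellular list split evenly, with 7 of 14 above 0 and 7 below, a median of -0.02, and 1 called gene, Penk. The sign of that median turned with 1 array left out, at 0.03 without DMSO 4 days replicate 1 and -0.07 without DMSO 4 days replicate 2. Oxt measured 12.16, 12.36, 12.28 and 12.24 at 4 days, against 12.10, 12.06, 11.90 and 12.26 at 1 day, a log2 change of 0.18 (SE 0.125, adjusted p = 0.507), beside 0.29 (SE 0.14) in celastrol. Avp was at 11.39 ± 0.0995 at 4 days and 11.35 ± 0.0845 at 1 day (SD, n = 4 each). The groups overlapped for both magnocellular hormones. Ghrh, the growth hormone releaser, was lower in every 4-day array, at 10.23, 10.02, 10.18 and 10.11, against 10.48, 10.23, 10.28 and 10.48 at 1 day, a log2 change of -0.23 (SE 0.086, adjusted p = 0.211).

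The largest changes in the table belonged to dopamine and pituitary genes, and none passed. These genes were picked after their values were seen. Only 3 genes changed by 0.5 or more, Slc6a3, Cga and Gh, and 0 by 1 or more. Slc6a3, the dopamine transporter, measured 11.33, 10.70, 11.90 and 11.07 at 4 days, against 10.80, 10.13, 10.48 and 10.73 at 1 day, a log2 change of 0.72 (SE 0.372, adjusted p = 0.375). Th, which makes the dopamine precursor, measured 11.46, 11.23, 11.87 and 11.35 at 4 days, against 11.21, 10.90, 10.79 and 11.04 at 1 day, a log2 change of 0.50 (SE 0.140, adjusted p = 0.125). Every 4-day array of Th lay above every 1-day array, while the groups overlapped for Slc6a3, and DMSO 4 days replicate 3 was the highest for both.

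Other dopaminergic genes were less apart. Drd2, the autoreceptor, changed by 0.14 (SE 0.059, adjusted p = 0.262), Slc18a2, the vesicular transporter, by 0.16 (SE 0.149, adjusted p = 0.645), and Ddc, the next enzyme after Th, by -0.01 (SE 0.109, adjusted p = 0.959). In celastrol Slc6a3 changed by 0.26 (SE 0.430) and Th by 0.13 (SE 0.161). Over the DMSO arrays, Slc6a3 averaged 9.71 ± 0.949 at 6 hours, 10.53 ± 0.303 at 1 day and 11.25 ± 0.508 at 4 days (SD, n = 4 each), and Th averaged 10.86 ± 0.264, 10.98 ± 0.183 and 11.48 ± 0.279 at the same times. The arrays of 6 hours and 1 day overlapped for both genes.

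Pituitary hormone genes showed how much 1 animal can weigh. Gh, growth hormone, measured 7.89, 7.52, 9.28 and 7.69 at 4 days, against 7.82, 7.93, 10.98 and 8.06 at 1 day, a log2 change of -0.60 (SE 0.741, adjusted p = 0.738) that was 0.16 without DMSO 1 day replicate 3. Cga, the shared subunit of the glycoprotein hormones, measured 10.14, 7.36, 7.35 and 9.60 at 4 days, against 10.32, 9.66, 9.81 and 7.43 at 1 day, a log2 change of -0.70 (SE 0.982, adjusted p = 0.778). Both groups held high and low arrays. The pituitary list had 5 of 6 tested genes below 0, with a median of -0.23, and 0 called by limma, with 1 lower (Pomc) and 0 higher at an unadjusted p under 0.05. The median was -0.09 without DMSO 1 day replicate 3 and -0.31 without DMSO 4 days replicate 1.

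Transcription factors that mark hypothalamic regions had 16 of 21 tested members below 0 and 5 above, with a median of -0.07, and 0 called by limma, with 2 lower and 1 higher at an unadjusted p under 0.05. Nkx2-2 was the higher one, at 8.99, 8.98, 9.03 and 8.98 at 4 days, against 8.82, 8.84, 8.78 and 8.82 at 1 day, a log2 change of 0.18 (SE 0.049, adjusted p = 0.115). Nkx2-4 had a log2 change of -0.22 (SE 0.073, adjusted p = 0.184). Relative to the 1-day mean, the array means of the list ran from -0.108 to -0.0064 at 4 days and from -0.043 to 0.049 at 1 day, with overlap. In celastrol 19 of the 21 were below 0, with a median of -0.11, where 63.3% of all genes were above 0. The neighbouring forebrain list had 11 of 14 below 0, with a median of -0.08, and Penk as its 1 call. Calb2, calretinin, was lower in every 4-day array, at 12.59, 12.42, 12.61 and 12.56, against 12.71, 12.88, 12.84 and 12.71 at 1 day, a log2 change of -0.24 (SE 0.054, adjusted p = 0.0580).

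Clock genes, whose transcripts follow the hour of the day, had signs in near balance. Of 19 tested, 10 were above 0 and 9 below, with a median of 0.02, and 0 passed by limma, with 1 higher and 1 lower at an unadjusted p under 0.05. Arntl, the activator of the clock, was at 9.03 ± 0.0684 at 4 days and 8.95 ± 0.0480 at 1 day (SD, n = 4 each). Its repressors and outputs had changes near 0: Per1 changed by -0.01 (95% interval -0.16 to 0.14), Per2 by 0.06 (-0.06 to 0.18), Dbp by 0.02 (-0.10 to 0.14) and Nr1d1 by -0.01 (-0.10 to 0.08). Ciart, another repressor, had the largest change of the list, -0.23 (SE 0.102, adjusted p = 0.285), and Rorb the largest rise, 0.10 (SE 0.040, adjusted p = 0.268).

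No stress-response list held a called gene by limma. For heat shock, 13 of 19 genes were below 0, with a median of -0.02 and 0 genes at an unadjusted p under 0.05. Hspa4l, of the Hsp110 family, changed by 0.08 (SE 0.044) and Hspa4 by -0.07 (SE 0.041). For the unfolded protein response, 15 of 25 were below 0, with a median of -0.01 and 5 lower and 0 higher at an unadjusted p under 0.05. Chac1, a target of ATF4, measured 9.09, 9.10, 9.21 and 9.07 at 4 days, against 9.34, 9.35, 9.24 and 9.25 at 1 day, a log2 change of -0.18 (SE 0.052, adjusted p = 0.138) with no overlap. Asns, asparagine synthetase, changed by -0.14 (SE 0.049), and by -0.08 without DMSO 1 day replicate 1. For NRF2 targets, 14 of 18 were below 0, with a median of -0.05, 2 lower and 1 higher at an unadjusted p under 0.05, and Gsta4, a glutathione transferase, at -0.22 (SE 0.053, adjusted p = 0.0789) and Cat, catalase, at 0.10 (SE 0.037, adjusted p = 0.220).

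Metabolic and inflammatory lists also held 0 called genes by limma. Cholesterol and fatty acid synthesis had 13 of 22 below 0 and a median of -0.01, with 1 lower and 1 higher at an unadjusted p under 0.05: Msmo1, a sterol oxidase, at -0.14 (SE 0.056) and Fasn, fatty acid synthase, at 0.14 (SE 0.047). Fasting and fatty acid oxidation had 13 of 19 below 0 and a median of -0.02, with 3 lower and 0 higher at that level; the smallest p belonged to Acaa2, the mitochondrial thiolase, at -0.20 (SE 0.061) and Slc25a20, the carnitine carrier, at -0.14 (SE 0.051). The acute-phase list had 5 of 8 below 0 and a median of -0.10, with 1 lower and 0 higher at that level, and C4b, of complement, at -0.13 (SE 0.077). The interferon list had 6 of 7 below 0 and a median of -0.10, with 1 lower and 0 higher at that level. Irf9, of the interferon receptor's transcription complex, changed by -0.13 (SE 0.044) and Ifit3 by -0.15 (SE 0.082). Most acute-phase and interferon genes were dim, 20 of 28 and 18 of 25 on the array, so those counts rest on few genes.

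Glial and vascular markers held 0 calls by limma as well. Of 21 myelin and oligodendrocyte genes, 14 were above 0 and 7 below, with a median of 0.01, and 3 were higher and 0 lower at an unadjusted p under 0.05. Cspg4, of oligodendrocyte precursors, measured 9.28, 9.21, 9.40 and 9.27 at 4 days, against 8.98, 9.13, 9.17 and 9.18 at 1 day, a log2 change of 0.17 (SE 0.054, adjusted p = 0.165), beside 0.20 (SE 0.06) in celastrol. Myrf, the myelin regulatory factor, changed by 0.15 (SE 0.053, adjusted p = 0.193). In whole tissue, fewer cells of a type and less RNA per cell cannot be told apart.

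Of 18 astrocyte and tanycyte genes, 13 were below 0 and 5 above, with a median of -0.05, and 4 were lower and 1 higher at an unadjusted p under 0.05. Mlc1, a membrane protein of astrocyte endfeet, measured 11.22, 11.05, 11.23 and 11.14 at 4 days, against 11.49, 11.27, 11.33 and 11.34 at 1 day, a log2 change of -0.20 (SE 0.050, adjusted p = 0.101), beside -0.17 (SE 0.06) in celastrol. Serpina3n, a protease inhibitor of reactive astrocytes, changed by -0.22 (SE 0.067, adjusted p = 0.150), beside -0.22 (SE 0.08) in celastrol. Gjb6, connexin 30, changed by -0.17 (SE 0.057, adjusted p = 0.191), beside -0.24 (SE 0.07) in celastrol. The difference between the intervals was 0.08 for Gjb6, -0.02 for Mlc1 and -0.01 for Serpina3n.

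Microglial markers had 10 of 15 below 0 and a median of -0.03 in DMSO, with 1 lower and 0 higher at an unadjusted p under 0.05, beside 14 of 15 above 0 and a median of 0.17 in celastrol. Laptm5, a lysosomal protein of blood-derived cells, changed by -0.13 (SE 0.055) in DMSO and 0.09 (SE 0.06) in celastrol, and Sall1, a microglial transcription factor, by 0.12 (SE 0.062) in DMSO and 0.07 (SE 0.07) in celastrol. Endothelial, pericyte and meningeal markers had 10 of 17 below 0 and a median of -0.03 in DMSO, with 1 lower and 1 higher at that level, beside 14 of 17 above 0 and a median of 0.12 in celastrol. Abcc9, of pericytes, was the higher one at 0.11 (SE 0.053), beside 0.15 (SE 0.06) in celastrol. The differences between the intervals were tested gene by gene only, and no microglial or vascular gene passed.

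The remaining lists were small or dim, with 0 calls by limma and 0 genes at an unadjusted p under 0.05. Choroid plexus and ependyma had 5 tested genes with a median of -0.03, among them Tmem212 at 0.11 (SE 0.060) and Rarres2 at -0.07 (SE 0.091), and histones had 9 with a median of -0.02, among them H2bc4 at 0.17 (SE 0.083) and H2ax at -0.10 (SE 0.055). Proliferation had 2 tested genes, Pcna at -0.10 (SE 0.085) and Tubb5 at 0.02 (SE 0.034). The sex-linked check had 3, all at 0.04 to 0.11, among them Kdm5d and Uty, which were above the array median throughout in these male mice. Of 10 blood cell genes on the array, 0 were bright enough for the test. Chga, of neuroendocrine granules and on the pituitary list, was at 12.90 ± 0.0619 at 4 days and 12.83 ± 0.0966 at 1 day (SD, n = 4 each).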

How the data were processed

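RNA of the hypothalamus was biotin-labelled with an Affymetrix whole-transcript kit and hybridised to arrays, per the labels' protocols. The deposited values are log2 intensities that the authors made with RMA, per the submitters' processing notes; its version was not given in the sources used here. Of 23492 probe sets, 20228 had 1 symbol in the platform's annotation, 1399 several and 1865 none. They name 18704 genes, and for the 809 genes with several probe sets the brightest was kept. Tested were 9880 genes whose value exceeded the array median in 3 or more of 22 arrays; 8824 were dim. No pair of arrays was identical (0 pairs). Levels were not compared between genes.

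One model of 6 group means over 22 arrays was fitted with limma 3.58.1 in R 4.3.3 (lmFit, eBayes), with 6.06 prior and 16 residual degrees of freedom and a residual SD of 0.0758 in the median gene. Adjusted p is Benjamini-Hochberg over 9880 genes, two-sided, threshold 0.05; intervals are 95%. Exact permutation tests over 4 against 4 arrays, 70 arrangements, cannot give a two-sided p below 0.0286, and every gene whose groups did not overlap reaches that p. Labels call the arrays biological replicates. Arrays have no read depth; their number limits the precision.

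Replicate numbers did not pair the arrays: deviations of same-numbered arrays correlated at 0.21, 0.18, -0.11 and -0.23 for numbers 1 to 4.

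The comparison, the 28 gene lists, the alternatives and the rule for named genes were chosen with earlier results of these data known, so they are no independent evidence. The rule took up to 15 called genes each way, filled to 10 by smallest p, up to 4 called or 2 lowest-p members of each list, a fixed set (Agrp among it, not analysed here), and the 5 lowest-p differences between treatments. Genes picked after their values were seen are Slc6a3, Th, Drd2, Slc18a2, Ddc, Cga, Nr4a2, Sik1, Nptx2, Btg2, Ghrh and Calb2. Fits were tested on simulated data. Figures used matplotlib 3.10.9 in Python 3.11.15. Alternatives were other filters, probe set rules, normalizations, variance models, covariates, array subsets and leaving out each array.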

Additional observations from a re-analysis of the deposited data

Results flagged for a closer look

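For each named gene and each of the 2 DMSO groups, the highest or lowest array was compared with the other 3 by Dixon's test. Of 168 such groups 9 exceeded the 95% value, and chance flags about 1 in 20. DMSO 1 day replicate 1 gave 5 of the 9. Its Bsn was 9.32 where the others were 9.60 to 9.64, its Nr4a1 was 8.72 where the others were 9.08 to 9.10, and its Per2 was 9.31 where the others were 9.54 to 9.56. It was high for Asns, at 12.37 beside 12.09 to 12.12, and for Cdkn2aipnl, at 10.88 beside 10.77 to 10.78. At 4 days, Ptpn5 was low in replicate 1, at 10.71 beside 10.81 to 10.83, R3hcc1 was high in replicate 3, at 8.46 beside 8.37 to 8.39, and Asns was low in replicate 2, at 11.996 beside 12.04 to 12.05. Gh was high in DMSO 1 day replicate 3, at 10.98 beside 7.82 to 8.06.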

How the results depend on the processing

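The count of 15 genes depended on the model. It was 168 with array weights (59 higher, 109 lower; the weights were taken from an estimate that stopped before it converged), 106 with the leading residual component as a covariate, 47 with limma-trend, 37 after quantile normalization again, 29 with probe sets averaged per gene, 25 with robust eBayes, 25 with the filter within the arrays compared, 24 with a stricter filter of 11 arrays, 5 without the 2 least typical arrays (DMSO 1 day replicate 1 and celastrol 1 day replicate 2, an alternative chosen after seeing the data), 1 with no filter on level, and 0 with only the groups compared or with DMSO arrays only. All 15 were among the calls under array weights, the residual component, limma-trend, quantile normalization again, the mean of probe sets, robust eBayes and the filter within the arrays compared. The weights and the residual component were estimated from the residuals of these same arrays. That the 15 were kept there is no independent evidence. Without 1 array in turn it was 1 to 13. The fit with replicate number as a block called 13 genes, 12 of them among the 15; the arrays share only a number, since not every array correlated best with its own number. Median centring gave 16 and all probe sets 17. Celastrol 4 days against 1 day had 0 calls, and 91 with array weights, 69 with the residual component, 2 with limma-trend, and 0 to 2 without 1 array in turn. The difference between treatments had 0 calls, and 1 with the residual component.

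Signs turned for genes whose changes were near 0 or set by 1 array. Without 1 array in turn, Pcna ranged over -0.16 to 0.0074, Per1 over -0.10 to 0.047, Per2 over -0.00048 to 0.086, Dbp over -0.016 to 0.071, Nr1d1 over -0.037 to 0.013, Fkbp5 over -0.088 to 0.048, Gh over -0.99 to 0.16 and Ly86 over -0.055 to 0.025. With both least typical arrays left out, Pcna was 0.0074, Per2 -0.00048, Nr1d1 0.013 and Ly86 0.025. With array weights Nr1d1 was 0.0039 and Ly86 0.014, and after quantile normalization again Nr1d1 was 0.00075 and Tubb5 -0.0028. Among list medians, the sign turned without 1 array in turn for hypophysiotropic and magnocellular peptides (-0.07 to 0.03), endothelium (-0.07 to 0.0092), choroid plexus (-0.07 to 0.02), heat shock (-0.04 to 0.0026), cholesterol (-0.03 to 0.0049), myelin (-0.0039 to 0.04) and proliferation (-0.07 to 0.0041). Apart from fewer genes or arrays in a fit, the cause was not tested. Among values of named genes, 1627 kept direction and side of the threshold, 148 fell short of it and 56 came to pass it. The smallest change among the 15 genes was 0.19 on the log2 scale, with 4 arrays a group.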
